A study of Mus musculus with 9 samples.

Results

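Selp_high pre-aged hematopoietic stem cells (paHSCs) were compared with young HSCs (yHSCs) by RNA-seq of mouse bone marrow, to ask how the gene expression of the fraction of older stem cells that carries the adhesion protein Selp differs from that of young ones. The comparison was chosen by the group labels and used 6 of the 9 libraries of the series, 3 of yHSCs and 3 of Selp_high paHSCs (n = 3 each). The yHSCs came from mice of 6 to 10 weeks and the paHSCs from mice of 14 to 16 months. Per the study's methods, mice were female and on a C57BL/6 background. Its gating scheme for Selp-defined HSCs starts from SLAM-HSCs (Lin-, Sca1+, c-Kit+, CD48-, CD150+). The methods give no separate gate for the RNA-seq cells, so the gate of the sequenced yHSCs is not certain. The paHSCs were then divided by surface Selp, and the other 3 libraries of the series hold their Selp_low fraction. The groups therefore differ both in age and in a gate on Selp, and the part of each in a difference cannot be told apart here. Whether a library held the cells of 1 mouse or of several is not given in the sources used here, so p-values measure the spread between these libraries.

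HSCs are the rare, mostly quiescent bone marrow cells that renew themselves and give rise to all blood lineages. With age their number in the marrow grows while their output shifts away from lymphocytes and toward platelets and myeloid cells. Megakaryocytes, the cells that shed platelets, carry a set of receptors, granule proteins and cytoskeletal proteins that some HSCs already transcribe. Selp (P-selectin) is itself a protein of platelet and endothelial granules that is brought to the surface and binds ligands on leukocytes.

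Levels are given as CPM, read counts scaled by library size with TMM factors. The 6 libraries held between 24866975 and 35375310 counts on 56748 genes. A gene without a read could still be present at up to 0.0824 to 0.121 CPM, depending on the library, a limit for counting error alone. Detected genes ranged from 21094 in yHSC 2 and 21755 in Selp_high 1 to 33867 in yHSC 1. The 10 genes with most counts took 12.5% of yHSC 1 and between 3.90% and 6.37% of the other 5 libraries. Spearman correlations between libraries lay between 0.878 and 0.964, across 20017 genes, which are not independent replicates. They did not follow the groups alone. The highest was of yHSC 2 with yHSC 3, but yHSC 1 with yHSC 2 had 0.881, below yHSC 2 with Selp_high 1 (0.929) and yHSC 3 with Selp_high 3 (0.928).

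Levels were tested with edgeR's quasi-likelihood test, and a differentially expressed gene (DEG) had to pass a Benjamini-Hochberg adjusted p of 0.05 and differ by at least 1 on the log2 scale. In the text, a gene rose or fell only where edgeR called it so. The study used DESeq2, and its calls at the same thresholds are given beside those of edgeR by name. edgeR tested 20017 genes and called 33, of which 21 rose (0.105% of the genes tested) and 12 fell (0.0599%) in Selp_high paHSCs. At an unadjusted p under 0.05 it found 1519 genes. DESeq2 called 597 genes, 374 higher (1.87%) and 223 lower (1.11%), with all 33 edgeR DEGs among them, and limma with voom quality weights called 275. Of the 33 genes, 29 are protein-coding, 2 are long noncoding RNAs, 1 is an immunoglobulin segment and 1 a processed pseudogene. In all 33 the libraries of the groups did not overlap. Over all genes tested, every Selp_high library lay above every yHSC library for 8.31% and below for 6.09%. The median gene differed by -0.03 on the log2 scale.

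**Figure D1:**
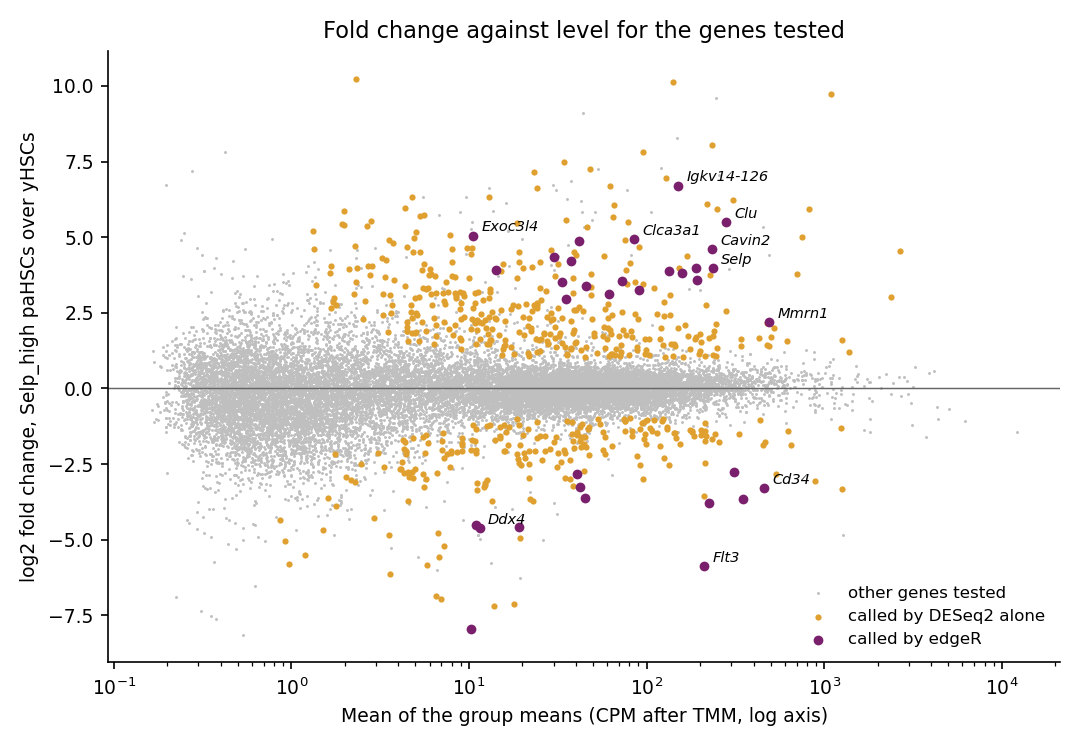
Log2 fold change of Selp_high paHSCs over yHSCs (y axis) against the mean of the group means (x axis, CPM after TMM, log axis) for the 20017 genes tested. Each point is a gene: purple for the 33 called by edgeR, orange for the 564 called by DESeq2 alone, gray for the rest. The purple points lie above about 10 CPM, with 21 over 0 and 12 under it.

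The edgeR calls rested on the full set of libraries. With 1 library left out, 19 of the 33 genes were called again without yHSC 1 and 20 without Selp_high 1, and none without yHSC 2, yHSC 3, Selp_high 2 or Selp_high 3. In those 4 subsets edgeR called 0 genes in all, with 1053, 897, 1573 and 1488 genes at an unadjusted p under 0.05, while DESeq2 called 370, 337, 586 and 728. DESeq2 called all 33 genes in each of the 6 subsets, and 247 of its 597 calls, 176 higher and 71 lower, were made in all of them. Without the 2 libraries with the fewest genes detected (yHSC 2 and Selp_high 1), edgeR called 0 genes, with 1113 at an unadjusted p under 0.05, and DESeq2 called 407.

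*Selp* and the other genes of the sort checked the labels. *Selp* (ENSMUSG00000026580, mm39, chromosome 1 from 163942833 to 163977595, plus strand) was at 24.5, 35.5 and 24.9 CPM in yHSC 1, 2 and 3 and at 737, 303 and 291 CPM in Selp_high 1, 2 and 3. Every Selp_high library was far above every yHSC library, and Selp_high 1 stood above the other two. The rise was 15.7-fold (log2 fold change 3.97, standard error 0.46, adjusted p = 0.0324 by edgeR). This difference follows from the gate and is a check, not a finding. *Kit*, the receptor c-Kit, was at 507 ± 243 CPM (SD, n = 3) in yHSCs and 386 ± 119 CPM in Selp_high paHSCs, with overlapping libraries (adjusted p = 0.988 by edgeR). *Ly6a*, which encodes Sca1, was at 185 ± 15.4 and 278 ± 126 CPM, also overlapping (adjusted p = 0.833 by edgeR). *Cd48*, whose protein the SLAM gate excludes, was at 13.2 to 44.1 CPM over the 6 libraries (adjusted p = 0.999 by edgeR). In yHSC 1, 2 and 3 it was at 18.65, 28.3 and 36.7 CPM, each above *Slamf1*, described next, so its level does not check the gate. The sign of the *Cd48* difference turned when yHSC 3, Selp_high 1 or Selp_high 3 was left out.

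*Slamf1*, the gene of CD150, whose protein marks SLAM-HSCs, rose. It was at 12.96, 17.98 and 20.7 CPM in the yHSC libraries and at 224, 181 and 86.3 CPM in the Selp_high libraries. The groups stood apart and the rise was 9.51-fold (log2 fold change 3.25, adjusted p = 0.0498 by edgeR). With 1 library left out, edgeR no longer called it in any subset. Of 20 genes of HSC identity and sorting tested, *Slamf1* rose, and *Cd34* and *Flt3*, described next, fell. Whether the groups held different mixes of stem and progenitor cells was not tested. DESeq2 called 4 of the 20 higher and 3 lower, and the median log2 fold change was 0.18. Its other calls were *Esam*, an adhesion molecule of HSCs (1.66), *Ctnnal1* (1.52) and *Hoxb5* (1.46), all higher, and *Cd27*, a receptor of multipotent progenitors (-1.48), lower, given as log2 fold changes. *Hlf*, a transcription factor of HSCs, was at 131, 399.7 and 417.5 CPM in yHSCs and at 184, 209 and 153 CPM in Selp_high paHSCs, and was called by neither tool (adjusted p = 0.821 by edgeR).

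**Figure D2:**
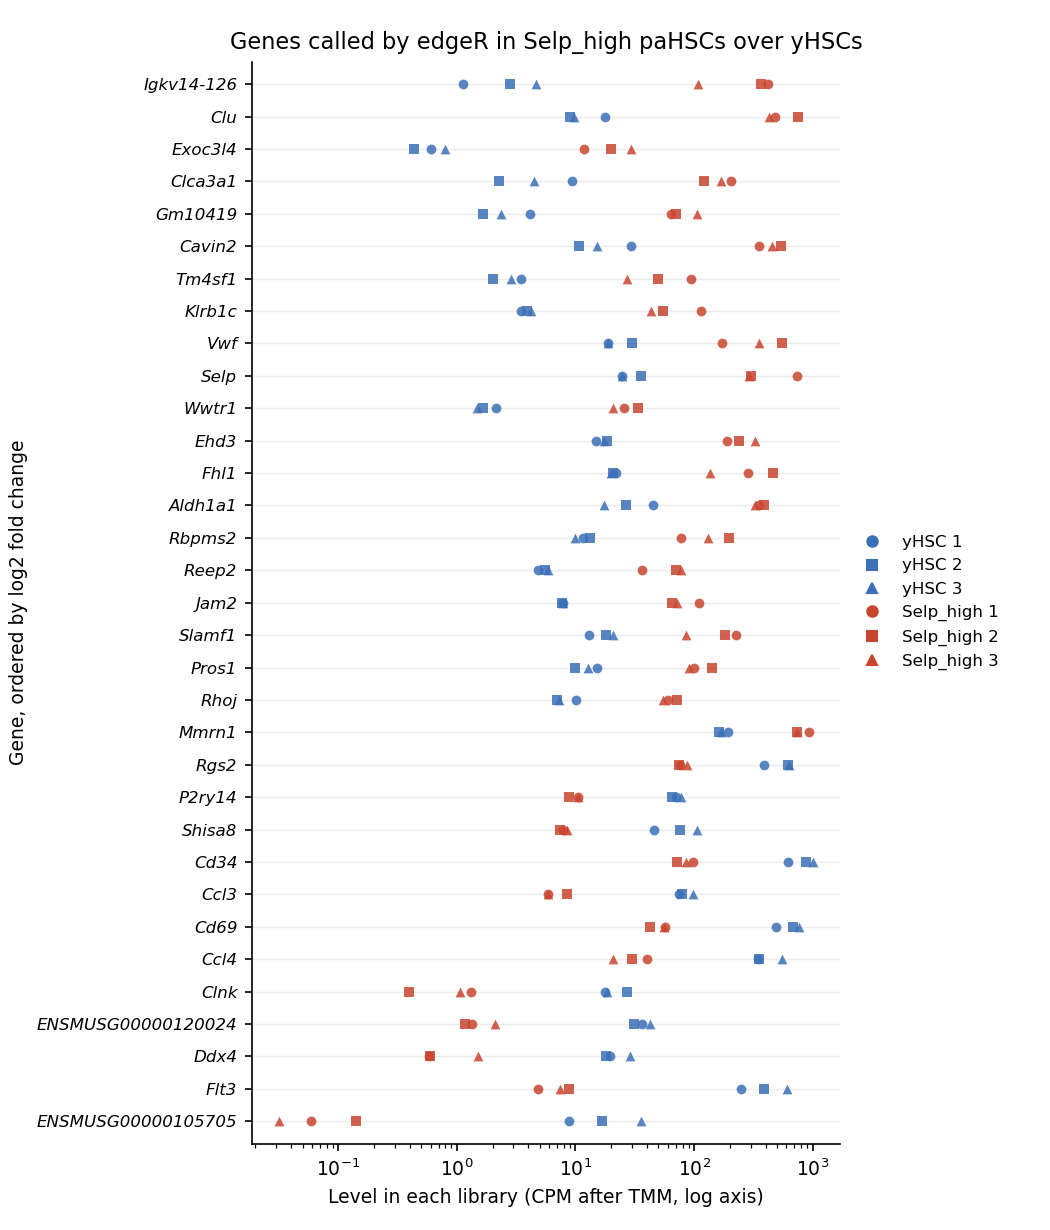
Levels of the 33 genes called by edgeR in each library (x axis, CPM after TMM, log axis), with genes on the y axis ordered by log2 fold change. Blue symbols are the 3 yHSC libraries and red symbols the 3 Selp_high paHSC libraries, and in all 33 genes the colors do not overlap.

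Among the genes that fell, *Flt3* changed most of the protein-coding ones. *Flt3* (ENSMUSG00000042817, mm39, chromosome 5 from 147267551 to 147337299, minus strand) encodes a receptor tyrosine kinase of multipotent and lymphoid-primed progenitors. It was at 247, 391 and 603 CPM in yHSC 1, 2 and 3 and at 4.85, 8.89 and 7.40 CPM in the Selp_high libraries. Each Selp_high library held it at a low level and the fall was 58.7-fold (log2 fold change -5.87, standard error 0.47, adjusted p = 0.0159 by edgeR). *Cd34* (ENSMUSG00000016494, chromosome 1 from 194621127 to 194643587, plus strand), a sialomucin of progenitors and endothelium, was at 615, 876 and 1011 CPM in yHSCs and 97.1, 71.2 and 85.7 CPM in Selp_high paHSCs. All Selp_high libraries were below all yHSC libraries, and the fall was 9.86-fold (adjusted p = 0.0184 by edgeR). *Cd69* (ENSMUSG00000030156, chromosome 6 from 129244288 to 129252399), a lectin that appears early in activated leukocytes and restrains their exit from tissue, was at 486, 679 and 770.5 CPM and at 56.9, 42.2 and 55.9 CPM. The groups were apart by more than their spread, with a 12.5-fold fall (log2 fold change -3.64, adjusted p = 0.0159 by edgeR).

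The chemokines *Ccl3* and *Ccl4*, which attract monocytes and lymphocytes, fell together. *Ccl3* (ENSMUSG00000000982, chromosome 11 from 83538670 to 83540181) was at 75.2, 78.7 and 97.2 CPM in yHSCs and at 5.88, 8.47 and 5.89 CPM in Selp_high paHSCs (12.4-fold lower, adjusted p = 0.0159 by edgeR). *Ccl4*, beside it on the chromosome (from 83553410 to 83555509), was at 346, 353 and 555 CPM and at 39.95, 30.1 and 20.6 CPM (13.8-fold lower, adjusted p = 0.0199 by edgeR). In both genes the 3 Selp_high libraries were low and close to each other. The long noncoding RNA ENSMUSG00000120024 lies across *Ccl3* on the other strand and fell with it (log2 fold change -4.57, adjusted p = 0.0159 by edgeR). The strand setting of the counting is not given in the sources used here, and the reads of this pair cannot be told apart.

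The other genes that fell have signaling or less known roles. *Rgs2*, a brake on G-protein signaling, was at 390, 619 and 625 CPM in yHSCs and 76.6, 74.8 and 87.8 CPM in Selp_high paHSCs (6.83-fold lower, adjusted p = 0.0209 by edgeR). *P2ry14*, the receptor of UDP-glucose, went from 71.3 ± 6.37 to 9.95 ± 0.921 CPM (SD, n = 3; adjusted p = 0.0191 by edgeR). *Shisa8*, a membrane protein, went from 76.1 ± 30.2 to 7.94 ± 0.566 CPM (adjusted p = 0.0320 by edgeR). These 3 genes had a narrow spread in the Selp_high group. *Clnk*, an adapter of immunoreceptor signaling, was at 17.7, 27.0 and 18.4 CPM in yHSCs and 1.31, 0.394 and 1.07 CPM in Selp_high paHSCs. *Ddx4*, the RNA helicase Vasa of germ cells, was at 19.6, 17.9 and 28.6 CPM and at 0.585, 0.591 and 1.51 CPM. Both were near absent from the Selp_high libraries (log2 fold changes -4.50 and -4.62, adjusted p = 0.0401 and 0.0327 by edgeR), and edgeR called neither with any 1 library left out. The processed pseudogene ENSMUSG00000105705 had the lowest levels, 0.0585, 0.141 and 0.0315 CPM in the Selp_high libraries, within or close to what a count of 0 allows, against 8.84, 16.9 and 35.7 CPM in yHSCs. It lies across *Gm5861*, and its reads may be shared with near-identical copies.

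The genes that rose included secreted and granule proteins of platelets and endothelium. *Clu* (ENSMUSG00000022037, mm39, chromosome 14 from 66205932 to 66218996, plus strand), the secreted chaperone clusterin, was at 17.7, 9.06 and 9.70 CPM in yHSC 1, 2 and 3 and at 481, 746 and 427 CPM in Selp_high 1, 2 and 3. It was high in every Selp_high library, and its rise of 45.4-fold (log2 fold change 5.50, standard error 0.43, adjusted p = 0.0159 by edgeR) was the largest among protein-coding DEGs. *Vwf* (ENSMUSG00000001930, chromosome 6 from 125523737 to 125663642, plus strand), von Willebrand factor, which tethers platelets to injured vessel walls, was at 18.7, 29.9 and 18.9 CPM and at 171, 549 and 355 CPM. The Selp_high libraries differed among themselves by more than the yHSC libraries but all lay above them (15.9-fold, adjusted p = 0.0401 by edgeR). *Mmrn1*, multimerin 1, which binds coagulation factor V in platelet granules, was at 195, 164 and 170 CPM and at 937, 731 and 742 CPM (4.56-fold, log2 fold change 2.19, adjusted p = 0.0251 by edgeR). *Pros1*, protein S, an anticoagulant cofactor, was at 12.6 ± 2.63 CPM (SD, n = 3) in yHSCs and 110.6 ± 27.4 CPM in Selp_high paHSCs (adjusted p = 0.0209 by edgeR).

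Membrane-shaping and adhesion genes rose as well. *Cavin2* (ENSMUSG00000045954, chromosome 1 from 51328285 to 51342119, plus strand), a coat protein of caveolae, was at 29.4, 10.7 and 15.2 CPM in yHSCs and at 354, 536 and 456 CPM in Selp_high paHSCs. The rise of 24.4-fold (log2 fold change 4.61, adjusted p = 0.0209 by edgeR) was many times the spread in either group. *Ehd3* (ENSMUSG00000024065, chromosome 17 from 74111129 to 74139089, plus strand), an ATPase of endosome recycling, was at 14.9, 18.3 and 17.4 CPM and at 190.5, 240 and 323.5 CPM, and had the lowest p of all genes (14.9-fold, standard error 0.30 on the log2 scale, adjusted p = 0.0159 by edgeR). *Jam2*, a junctional adhesion molecule, was at 7.91, 7.74 and 7.91 CPM in yHSCs and 111, 65.5 and 71.9 CPM in Selp_high paHSCs (adjusted p = 0.0191 by edgeR). *Tm4sf1*, a membrane protein of endothelium, was at 3.47, 2.03 and 2.87 CPM and at 94.5, 49.6 and 27.2 CPM (20.4-fold, adjusted p = 0.0458 by edgeR). The Selp_high libraries of *Tm4sf1* spread more than those of *Jam2*. *Rhoj*, a small GTPase known from endothelium, went from 8.12 ± 1.68 to 62.3 ± 9.16 CPM (adjusted p = 0.0230 by edgeR), and *Wwtr1*, the transcriptional co-activator TAZ, from 1.75 ± 0.349 to 26.6 ± 6.54 CPM (adjusted p = 0.0199 by edgeR).

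Of the remaining genes that rose, several have no shared role. *Exoc3l4*, a relative of the exocyst subunits that dock vesicles, was near 0 in yHSCs at 0.606, 0.439 and 0.791 CPM and reached 11.8, 20.1 and 29.5 CPM in Selp_high paHSCs (33.2-fold, adjusted p = 0.0241 by edgeR). *Clca3a1*, of the chloride channel accessory family, was at 9.28, 2.28 and 4.49 CPM and at 203, 122 and 169 CPM (30.8-fold, adjusted p = 0.0324 by edgeR). *Aldh1a1*, which makes retinoic acid from retinaldehyde, was at 45.2, 26.9 and 17.5 CPM and at 349, 391 and 323 CPM (11.9-fold, adjusted p = 0.0274 by edgeR). These genes stood apart in every library. *Klrb1c*, the lectin receptor known as NK1.1, was at 3.47, 3.87 and 4.22 CPM and at 115, 54.7 and 43.1 CPM (adjusted p = 0.0265 by edgeR). *Fhl1*, a LIM-domain protein of muscle, *Rbpms2*, an RNA-binding protein, and *Reep2*, which shapes the endoplasmic reticulum, had log2 fold changes of 3.83, 3.55 and 3.51, and the noncoding *Gm10419* of 4.88. The immunoglobulin kappa segment *Igkv14-126* had the largest rise, from 1.13, 2.83 and 4.602 to 421, 369 and 109 CPM (log2 fold change 6.70, adjusted p = 0.0324 by edgeR); reads of such segments can be split among near-identical copies. Antisense or overlapping genes are annotated in the file across *Selp*, *Flt3*, *Cd34*, *P2ry14*, *Clnk*, *Cavin2*, *Exoc3l4*, *Klrb1c*, *Aldh1a1*, *Clca3a1*, *Wwtr1*, *Jam2*, *Fhl1* and *Gm10419*, and the split of their reads is uncertain too.

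The Selp_low libraries, scaled with the other 6, give the context of these levels. In all 33 genes the mean of Selp_low paHSCs lay between those of yHSCs and Selp_high paHSCs, a description that shares libraries with the comparison. On the scale of all 9 libraries, *Selp* had means of 24.6, 77.2 and 394 CPM in yHSCs, Selp_low and Selp_high paHSCs, *Mmrn1* 153, 159 and 714 CPM, *Cd69* 566, 394 and 46.0 CPM, and *Flt3* 367, 18.5 and 6.27 CPM. For *Mmrn1* and *Cd69* the Selp_low mean was nearer to that of yHSCs, and for *Flt3* nearer to that of Selp_high paHSCs. *Cd34* and *P2ry14* were placed like *Flt3*, with means of 733.2, 79.27 and 75.37 CPM and of 62.35, 10.15 and 8.864 CPM. Their Selp_low libraries ran from 21.87 to 169.1 and from 4.046 to 20.61 CPM, on both sides of the Selp_high mean. Those of *Mmrn1* ran from 88.74 to 202.4 CPM, on both sides of the yHSC mean. The fall of *Flt3*, *Cd34* and *P2ry14* was thus largely shared by Selp_low paHSCs. How many of the 33 followed each pattern was not counted.

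The sequence before the start of some of these genes was read from the RefSeq promoter table of the build GRCm38.p6, which differs from the build of the counts. It held windows of 300 bases (250 before and 50 after the start) for 24 of the 33 genes, 16 that rose and 8 that fell. Words known as sites of 4 families of blood transcription factors were searched on both strands: AGATAA for GATA, CCGGAAGT and AGGAAGTG for ETS, TGTGGTT and TGCGGT for RUNX, and TGACTCA or its reverse complement TGAGTCA for AP-1. The 250 bases before the start are shown for the gene of the sort, the protein-coding gene that fell most and a gene that rose from near 0, with matches in capitals. The windows are *Selp* at chr1:164115014-164115263 (plus strand), *Flt3* at chr5:147400490-147400739 (minus strand) and *Exoc3l4* at chr12:111417180-111417429 (plus strand).
*Selp*: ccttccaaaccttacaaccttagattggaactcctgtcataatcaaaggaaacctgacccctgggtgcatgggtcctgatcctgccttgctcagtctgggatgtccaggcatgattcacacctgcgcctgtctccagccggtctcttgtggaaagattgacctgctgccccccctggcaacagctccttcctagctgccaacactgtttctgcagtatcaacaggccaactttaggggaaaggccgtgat
*Flt3*: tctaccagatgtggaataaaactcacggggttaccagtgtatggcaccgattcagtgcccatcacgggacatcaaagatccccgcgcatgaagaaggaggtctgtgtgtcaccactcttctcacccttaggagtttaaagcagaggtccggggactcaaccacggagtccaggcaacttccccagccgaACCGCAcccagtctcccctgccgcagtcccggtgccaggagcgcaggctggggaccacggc
*Exoc3l4*: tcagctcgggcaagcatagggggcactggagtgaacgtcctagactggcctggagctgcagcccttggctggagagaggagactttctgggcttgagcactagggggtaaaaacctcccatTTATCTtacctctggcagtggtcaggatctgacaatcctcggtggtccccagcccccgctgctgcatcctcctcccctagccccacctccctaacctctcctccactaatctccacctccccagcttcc
The *Flt3* window holds a RUNX word (ACCGCA, the reverse complement of TGCGGT) and that of *Exoc3l4* a GATA word (TTATCT, the reverse complement of AGATAA). The *Selp* window holds none of the words. A GATA word was found for 12.5% of the genes that rose with a window (2 of 16) and 12.5% of those that fell (1 of 8), beside 9.15% of the 12925 tested genes with a window. For RUNX the shares were 18.8% (3 of 16) and 25% (2 of 8) beside 14.8%, for ETS 6.25% (1 of 16) and 0 of 8 beside 12.4%, and for AP-1 6.25% (1 of 16) and 12.5% (1 of 8) beside 5.03%. The windows are too few to compare these shares with those of all genes, and a match is a description, not a site.

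Groups of genes were described by 39 lists of functions, with the counts of members called and the median log2 fold change beside those of all genes tested. Over all genes tested DESeq2 called 1.87% higher and 1.11% lower, and its count in each list below is to be set beside these shares. The lists were written from general knowledge with earlier results of these data known. They share genes, so the same DEG can be counted in several lists. Of 34 genes listed for HSC aging, 11 rose by edgeR, 0 fell, and DESeq2 called 27 higher and 1 lower, beside 1.87% and 1.11% of all genes. The median log2 fold change was 3.42. Such genes were picked for a rise in aged HSCs, with earlier results of these data known, and *Selp* was gated on. The list and its counts are therefore not independent evidence of its direction. Besides those already described, DESeq2 called *Ramp2*, a receptor partner, from 1.12 to 3.22 CPM in yHSCs and 25.5 to 76.3 CPM in Selp_high paHSCs. *Nupr1*, a stress-response factor, was at 28.3, 11.2 and 7.30 CPM and at 659, 150 and 158 CPM (DESeq2 adjusted p = 1.09e-07, edgeR 0.141). *Sbspon*, *Plscr2*, *Sult1a1*, *Clec1a* and *Cd38* followed with log2 fold changes from 2.77 to 5.46, and *Mt1*, a metallothionein, with 2.47. The member called lower by DESeq2 was *Nr4a1*, a nuclear receptor that is also an immediate early gene, at 648, 3609 and 2602 CPM in yHSCs and 314, 40.4 and 335 CPM in Selp_high paHSCs. Of the 34 members, 18 were highest in Selp_high 1, 11 in Selp_high 2 and 3 in Selp_high 3.

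Platelet genes formed the other large group on the higher side. Of 21 platelet receptors tested, all had a log2 fold change above 0, with a median of 3.79. edgeR called 0 of the 21, with 18 at an unadjusted p under 0.05, limma called 10 and DESeq2 15, between 13 and 17 with 1 library left out. The 15 are 71.4% of the list, beside 1.87% of all genes tested. *Itga2b*, the integrin subunit CD41, was at 58.9, 122 and 104 CPM in yHSCs and at 499, 2074 and 1348 CPM in Selp_high paHSCs (log2 fold change 3.79, adjusted p = 0.0888 by edgeR and 6.11e-11 by DESeq2). *Treml1*, a receptor of platelet granules, was at 4.52, 4.14 and 5.89 CPM and at 41.7, 265 and 130 CPM (adjusted p = 0.0684 by edgeR and 8.06e-14 by DESeq2). *Mpig6b*, an inhibitory receptor of megakaryocytes, was at 0.323, 0.714 and 0.381 CPM and at 15.0, 119.5 and 8.50 CPM. *Gp6*, the collagen receptor, and *Slc6a4*, the serotonin transporter of platelets, showed the same order of libraries, with 21.0, 181 and 3.37 CPM and 26.6, 240 and 5.48 CPM in Selp_high 1, 2 and 3. Selp_high 2 held the highest level of 19 of the 21 receptors, and without it the median was 2.76.

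Granule and coagulation proteins and the megakaryocyte cytoskeleton had the same direction. Of 20 granule and coagulation genes tested, *Clu*, *Vwf* and *Mmrn1* rose by edgeR, and DESeq2 called 10 higher and 0 lower (8 to 12 with 1 library left out), with a median log2 fold change of 2.41. *Pf4*, platelet factor 4, was at 28.0, 23.6 and 27.2 CPM in yHSCs and at 88.5, 2490 and 2256 CPM in Selp_high paHSCs. Its lowest Selp_high library, replicate 1, was well below the other two, and edgeR gave an adjusted p of 0.149 and DESeq2 1.32e-10. *Ppbp*, a platelet chemokine, was at 7.39, 7.44 and 9.50 CPM and at 346, 1365 and 92.7 CPM. *Rab27b*, a GTPase of granule release, was at 24.8, 18.5 and 17.2 CPM and at 80.7, 288 and 230 CPM. *Timp3* and *F13a1*, an inhibitor of metalloproteinases and a subunit of coagulation factor XIII, had log2 fold changes of 2.69 and 2.23. Of 24 cytoskeleton and adhesion genes, edgeR called 0, with 13 at an unadjusted p under 0.05, limma 2 and DESeq2 9, all higher, with a median of 1.00. The DESeq2 count was 4 without yHSC 2 and 5 without yHSC 3. *Myl9*, a myosin light chain, was at 1.74, 2.03 and 2.40 CPM and at 182, 561 and 27.1 CPM. *Tubb1*, the tubulin of platelets, was at 1.49, 6.97 and 15.4 CPM and at 234, 1222 and 16.2 CPM, so that Selp_high 3 hardly exceeded yHSC 3. *Tgfb1i1*, a focal adhesion protein, was at 0.845 ± 0.452 and 15.2 ± 8.65 CPM (SD, n = 3).

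Of 17 eicosanoid genes, DESeq2 called 3 higher and 0 lower, limma called 0 and edgeR 0, with 5 at an unadjusted p under 0.05. *Alox12*, the platelet lipoxygenase, was at 2.54, 6.84 and 9.20 CPM in yHSCs and 243, 986 and 57.6 CPM in Selp_high paHSCs (log2 fold change 6.11, adjusted p = 0.141 by edgeR and 1.85e-11 by DESeq2). *Alox15*, a related lipoxygenase, was at 3.75, 5.13 and 10.99 CPM and at 11.1, 141 and 121 CPM, and *Pla2g4a*, the phospholipase that frees arachidonic acid, at 104 ± 11.3 and 216 ± 71.2 CPM. The list's median was 0.05. The transcription factors of megakaryocytes and erythroid cells held few calls. Of 18, DESeq2 called 2 higher and 1 lower, among them *Gfi1b* (log2 fold change 1.30), higher, and *Mafk* (-1.29), lower, while *Gata2*, at 128, 313 and 353 CPM in yHSCs and 462, 513 and 449 CPM in Selp_high paHSCs, was called by neither tool. edgeR called 0 of the 18, with 4 at an unadjusted p under 0.05, and limma called 3. The counts of this list fell to 1 higher and 0 lower without yHSC 2, yHSC 3 or Selp_high 2. Of 21 transcription factors of HSC self-renewal, edgeR called 0, with 9 at an unadjusted p under 0.05, and limma 3. DESeq2 called 5 higher, among them *Ndn* (1.92), *Tcf15* (1.78), *Mycn* (1.72) and *Hoxb5*, and 2 lower, *Hoxa9* (-1.49) and *Gfi1*, with 2 higher without yHSC 1 or Selp_high 1 and 0 lower without yHSC 2, yHSC 3 or Selp_high 2. Of 17 myeloid transcription factors, 12 were below 0 (median -0.53). DESeq2 called 2 lower, *Runx2* and *Gfi1*, and 0 higher, and 1 to 5 lower with 1 library left out. edgeR called 0, with 5 at an unadjusted p under 0.05, all lower, and limma called 1. *Spi1* was at 336 ± 17.2 and 177 ± 85.1 CPM (SD, n = 3) and was not called by edgeR or DESeq2.

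**Figure D3:**
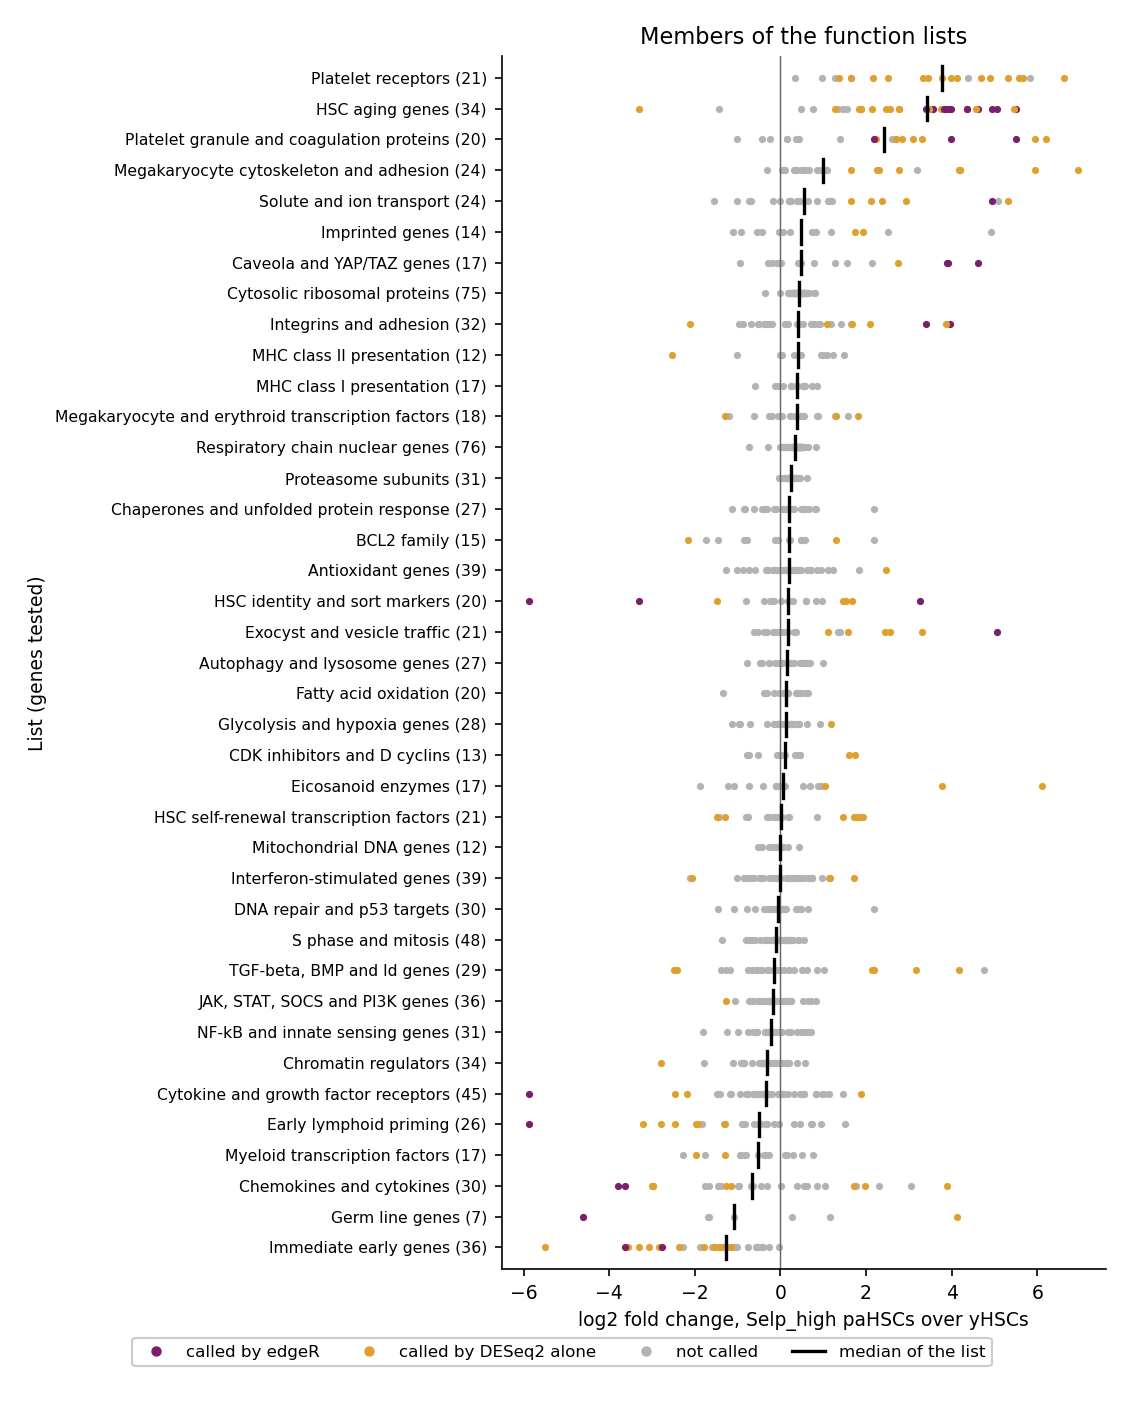
Log2 fold change of Selp_high paHSCs over yHSCs (x axis) for the tested members of 39 function lists (y axis, with the number tested), ordered by median. Each point is a gene, purple if called by edgeR, orange if called by DESeq2 alone and gray if not called, and black bars mark the medians, from 3.79 for platelet receptors to -1.28 for immediate early genes.

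Immediate early genes, which cells switch on within minutes of a stimulus, stood at the other end. All 36 tested had a log2 fold change below 0, with a median of -1.28, and DESeq2 called 14 lower and 0 higher. edgeR called *Cd69* and *Rgs2*, with 18 at an unadjusted p under 0.05, and limma called 10. *Nr4a1*, given above, and *Dusp5*, a phosphatase that switches off ERK signaling, were lowest in Selp_high 2. *Dusp5* was at 58.2, 485 and 619 CPM in yHSCs and at 31.4, 15.6 and 51.0 CPM in Selp_high paHSCs (adjusted p = 0.253 by edgeR and 6.20e-05 by DESeq2). *Rgs1*, like *Rgs2* a brake on G-protein signaling, was at 1147, 1980 and 1649 CPM and at 272, 93.9 and 203 CPM. *Dusp2*, *Btg2*, *Dusp6* and *Jun*, the AP-1 subunit, had log2 fold changes of -2.83, -1.78, -1.40 and -1.32. Of the 36, 16 were highest in yHSC 2 and 13 in yHSC 3, and 26 were lowest in Selp_high 2. The DESeq2 count was 7 without yHSC 2, 6 without yHSC 3 and 9 without Selp_high 2, and rose to 18 without Selp_high 1. In sorted cells such genes also respond to how cells were dissociated and how long they were held, and no label gives those times; their part in this difference was not tested.

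**Figure D4:**
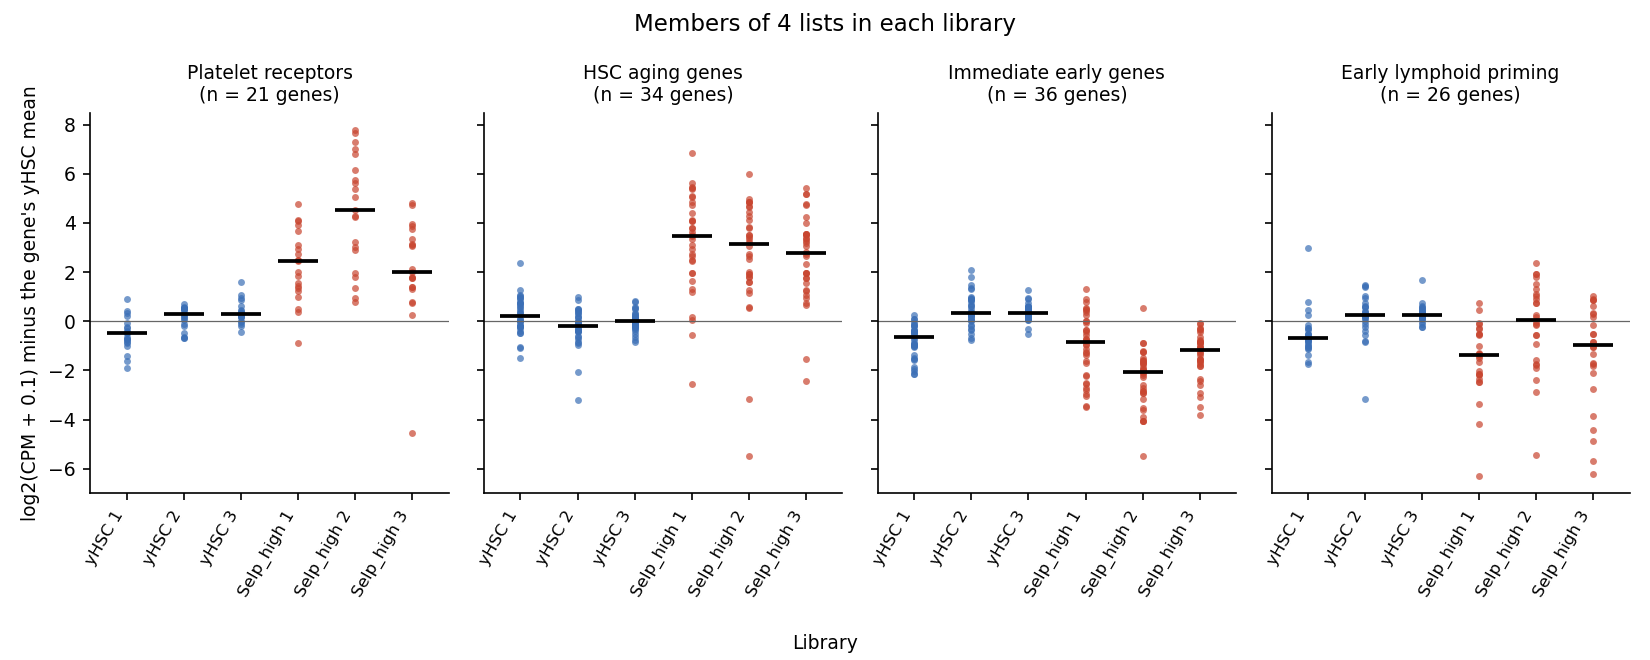
Levels of the members of 4 lists in each library (x axis), as log2(CPM + 0.1) minus the gene's mean over the 3 yHSC libraries (y axis). Each point is a gene, blue for yHSC and red for Selp_high libraries, and black bars mark the list's median in that library. Platelet receptors are highest in Selp_high 2, aging genes are high in all 3 Selp_high libraries, and immediate early genes are lowest in Selp_high 2.

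Genes of early lymphoid priming lay mostly on the lower side. Of 26 tested, *Flt3* fell by edgeR, 7 were called lower and 0 higher by DESeq2 and 6 lower by limma, and the median log2 fold change was -0.51. Without Selp_high 2 the median was -1.26, and without Selp_high 1 DESeq2 called 2 higher. *Dntt*, the polymerase that adds bases to antigen receptor joints, was at 28.5, 91.2 and 89.8 CPM in yHSCs and at 3.27, 16.5 and 2.80 CPM in Selp_high paHSCs (adjusted p = 0.296 by edgeR and 0.000666 by DESeq2). *Satb1*, a chromatin organizer of lymphoid cells, was at 40.04, 72.4 and 96.7 CPM and at 6.28, 8.84 and 15.2 CPM. *Sox4*, a transcription factor of lymphoid progenitors, was at 240, 388 and 458 CPM and at 78.8, 66.0 and 51.2 CPM (adjusted p = 0.0577 by edgeR and 8.33e-12 by DESeq2). These 3 genes were named by a rule that required groups without overlap. Every Selp_high library lay below every yHSC library for 7 of the 26, beside 6.09% of all genes tested. For 1 of the 26 every Selp_high library lay above, beside 8.31%. *Runx2* and *Gfi1*, transcription factors, had log2 fold changes of -1.97 and -1.29 and were called lower by DESeq2. Of the 26 members 20 were below 0, and 10 were lowest in Selp_high 1 and 9 in Selp_high 3.

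Cytokine signals had members on both sides. Of 30 chemokines and cytokines, *Ccl3* and *Ccl4* fell by edgeR, and DESeq2 called 7 lower and 3 higher, with a median of -0.65. The lower count was 3 or 4 without yHSC 1, yHSC 2, yHSC 3 or Selp_high 2. *Vegfa*, a growth factor of vessels, was at 24.0, 352 and 131 CPM in yHSCs and at 13.4, 15.3 and 34.3 CPM in Selp_high paHSCs, with overlapping libraries. *Ccl6*, a chemokine of myeloid cells, was at 26.3 ± 2.35 and 87.3 ± 22.6 CPM (SD, n = 3; adjusted p = 0.0993 by edgeR and 3.14e-06 by DESeq2), and *Cxcl5* was at 0.969, 0.329 and 0.762 CPM and at 0.877, 22.9 and 6.92 CPM, with overlap. Of 45 cytokine receptors, *Flt3* fell by edgeR, and DESeq2 also called *Il1r1* (log2 fold change -2.45) and *Il12rb2* (-2.18) lower and *Ghr*, the growth hormone receptor (1.89), higher. The lower count of receptors was 2 without yHSC 2, 5 without Selp_high 2 or Selp_high 3 and 6 without yHSC 1, and the higher count 0 without yHSC 2, yHSC 3, Selp_high 1 or Selp_high 3. Of 36 genes of JAK, STAT, SOCS and PI3K signaling, DESeq2 called *Pik3r5* lower, and edgeR and limma called 0, with 2 at an unadjusted p under 0.05 by edgeR. That DESeq2 call is 2.78% of the list, beside 1.11% of all genes tested. *Pik3r5* was called in 2 of the 6 DESeq2 fits with 1 library left out, and none of the 36 was called without yHSC 2, yHSC 3 or Selp_high 3. Of 31 genes of NF-kB and innate sensing, edgeR, DESeq2 and limma called 0, with 2 at an unadjusted p under 0.05 by edgeR.

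Of 39 interferon-stimulated genes, DESeq2 called the GTPases *Igtp* and *Irgm2* higher and *Oas2* lower, edgeR and limma called 0, and 7 had an unadjusted p under 0.05 by edgeR. Without yHSC 2 DESeq2 called none of the 39, and without Selp_high 1 it called 0 higher. *Igtp* was at 91.0, 81.3 and 94.3 CPM in yHSCs and at 424, 327 and 123 CPM in Selp_high paHSCs, and 21 of the 39 genes were highest in Selp_high 1. Of 12 MHC class II genes, DESeq2 called *H2-Ob*, a modulator of peptide loading, lower, at 158 ± 63.0 and 27.2 ± 12.7 CPM, while 9 of the 12 were above 0 (median 0.41). At an unadjusted p under 0.05 edgeR had 3 of them higher and 1 lower, and DESeq2 called 3 higher without Selp_high 3 and 1 higher without yHSC 2 or Selp_high 1. Caveola and YAP/TAZ genes included *Cavin2*, *Ehd3* and *Wwtr1*, which rose, and *Amotl2*, a YAP-binding protein, which DESeq2 called higher, at 3.71, 6.84 and 7.56 CPM and 33.7, 42.6 and 45.4 CPM (adjusted p = 0.0604 by edgeR). DESeq2 called 4 of the 17 tested higher, and again 4 with each of the 6 libraries left out. Of 32 integrin and adhesion genes, *Selp* and *Jam2* rose, and DESeq2 called 6 higher, among them *Cldn5* of tight junctions, and *Itga9* lower. *Selp* was gated on and is in both counts, where it is a check and not a finding. Of 29 genes of the TGF-beta and BMP family, DESeq2 called 4 higher and 2 lower, with *Bmp4* (log2 fold change 3.17) and *Bmpr1a* (2.197) among the higher and *Smad7* (-2.49) and *Skil* (-2.43), both inhibitors of the pathway, as the lower. The higher count was 2 without yHSC 3, and the lower count 0 without yHSC 2 or yHSC 3. Of 21 exocyst and vesicle genes, *Exoc3l4* rose and DESeq2 called 6 higher, with its relative *Exoc3l2* (2.56) among them. Of 24 transport genes, *Clca3a1* rose and DESeq2 called 6 higher, among them the drug pump *Abcb1a* (2.38). *Cavin2*, *Ehd3*, *Jam2*, *Exoc3l4* and *Clca3a1* are also counted in the HSC aging list, so their calls here are not further ones.

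Housekeeping groups held few calls. Of 75 cytosolic ribosomal protein genes tested, 73 had a log2 fold change above 0, with a median of 0.43. edgeR, DESeq2 and limma called 0, and 9 had an unadjusted p under 0.05 by edgeR. In 39 of the 75 every Selp_high library lay above every yHSC library, beside 8.31% of all genes tested. Of the 75, 62 were highest in Selp_high 2. Of 76 nuclear genes of the respiratory chain, 73 were above 0 (median 0.35), with 0 called by edgeR, DESeq2 or limma and 2 at an unadjusted p under 0.05 by edgeR. Of 48 genes of S phase and mitosis, the 3 tools called 0, with 1 at an unadjusted p under 0.05 by edgeR, and the median was -0.09. Of these genes 27 were highest in Selp_high 3 and 20 in yHSC 1, and 42 were lowest in Selp_high 1. *Cdkn1c*, a CDK inhibitor of quiescent HSCs, was at 14.2, 12.8 and 17.4 CPM in yHSCs and 91.0, 31.7 and 25.9 CPM in Selp_high paHSCs, with an adjusted p of 0.0312 by DESeq2 and 0.383 by edgeR. DESeq2 called it in 2 of the 6 fits with 1 library left out, and of its list of 13 CDK inhibitors and D cyclins it called 2 in all libraries and 0 without yHSC 2 or yHSC 3. *Ldha*, the lactate dehydrogenase of glycolysis, was at 841 ± 45.9 and 1919 ± 174 CPM (log2 fold change 1.19, adjusted p = 0.119 by edgeR and 6.58e-07 by DESeq2), the member called of 28 genes of glycolysis and hypoxia. The antioxidant, autophagy, proteasome, chaperone, fatty acid oxidation, mitochondrial DNA, DNA repair and MHC class I lists held 0 edgeR calls, between 0 and 8 members at an unadjusted p under 0.05 by edgeR, and 1 call by DESeq2 and by limma, *Mt1* for DESeq2. Of 34 chromatin regulators, 27 were below 0 (median -0.33), edgeR called 0, and DESeq2 and limma each called 1 lower. For DESeq2 that is 2.94% of the list, beside 1.11% of all genes tested. At an unadjusted p under 0.05 edgeR had 6 of the 34, all lower. DESeq2 called 1 higher and 1 lower of 15 BCL2 family genes, and 0 of them without yHSC 2, yHSC 3 or Selp_high 2. It also called 1 higher and 1 lower of 7 germ line genes, and 2 of 14 imprinted genes higher.

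Outside the lists, DESeq2 called further protein-coding genes with no overlap of the groups. *Sord*, sorbitol dehydrogenase, was at 204 ± 24.0 CPM in yHSCs and 650 ± 44.3 CPM in Selp_high paHSCs (log2 fold change 1.67, adjusted p = 0.0577 by edgeR and 8.75e-13 by DESeq2). *Hnf4a*, a nuclear receptor known from liver and gut, was at 12.2, 32.9 and 62.2 CPM in yHSCs and at 0, 0.563 and 0.189 CPM in Selp_high paHSCs, and *Wfdc18*, a small secreted protein, at 15.6, 8.34 and 14.8 CPM and at 0.263, 0.0563 and 0 CPM. Both were low in every Selp_high library, at 0 in 1 of the 3. *Mc5r*, a melanocortin receptor, was at 50.1, 26.3 and 51.0 CPM and at 1.40, 3.83 and 4.31 CPM. *Tespa1*, a protein of thymocyte signaling, and *Tasl*, an adapter of innate sensing, had log2 fold changes of -3.66 and -2.06, and *Spns3*, a transporter, of -1.73.

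Markers of other cell types were summed per library, because a sorted fraction can hold other cells, and fewer cells of a type and less RNA per cell cannot be told apart in bulk RNA. The sum of 16 mature megakaryocyte markers lay between 509 and 1054 CPM in yHSCs and between 2787 and 12330 CPM in Selp_high paHSCs. DESeq2 called 13 of 15 tested higher, 86.7% of them beside 1.87% of all genes tested. The megakaryocyte sum moves with the platelet lists above, which share its genes. Whether it comes from HSCs or from attached platelets or megakaryocytes was not tested. The sum of 14 plasma cell markers lay between 1062 and 1667 CPM in yHSCs and was 3341, 29280 and 10890 CPM in Selp_high 1, 2 and 3. It was led by *Igkc*, at 200, 90.2 and 360 CPM in yHSCs and 1399, 10170 and 3714 CPM in Selp_high paHSCs, and like *Igkv14-126* it was higher in every Selp_high library. The order within the group differed, since *Igkv14-126* was highest in Selp_high 1, where the sum was lowest, and the part of plasma cells in its rise was not tested. DESeq2 called 5 of 14 higher, with *Igha* at 4923 CPM in Selp_high 2 and 5.96 CPM in Selp_high 1. It called 3 without Selp_high 2, yHSC 2 or yHSC 3, and the list's median of 2.83 was 0.99 without Selp_high 2. Among T and NK markers, *Klrb1c* rose while the defining *Trac*, *Trbc2* and *Gzma* were at 7.26 CPM or less in every library. The sum of the 19 markers was 131 to 148 CPM in yHSCs and 195 to 214 CPM in Selp_high paHSCs. *Klrb1c* is part of this sum, at 3.47, 3.87 and 4.22 CPM in yHSCs and 115, 54.7 and 43.1 CPM in Selp_high paHSCs. No sum without *Klrb1c* was taken, so the gap between the groups cannot be read as one of the whole set.

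The sums of the other lineages differed in how the libraries were ordered. The sum of 19 neutrophil markers was 92850, 18150 and 23810 CPM in yHSC 1, 2 and 3 and 8406, 2378 and 54530 CPM in Selp_high 1, 2 and 3, led by *Ngp*, at 40650 CPM in yHSC 1 and 16630 CPM in Selp_high 3. DESeq2 called 3 of them higher, the proteases *Ctsg* and *Prtn3* and the peroxidase *Mpo*, with 1 higher without yHSC 2 or yHSC 3 and 7 lower without Selp_high 3. The sums of monocyte and erythroid markers overlapped between the groups, from 2934 to 13060 and 2122 to 8559 CPM and from 2301 to 7577 and 2440 to 4561 CPM. DESeq2 called 1 of 19 monocyte markers higher, *F13a1*, but 0 higher and 4 lower without Selp_high 2, and 0 without yHSC 2. The sum of 15 endothelial markers lay between 261 and 530 CPM in yHSCs and 782 and 1181 CPM in Selp_high paHSCs. *Vwf* is part of it, at 18.7, 29.9 and 18.9 CPM in yHSCs and 171, 549 and 355 CPM in Selp_high paHSCs. No sum without *Vwf* was taken, so the gap cannot be read as one of the whole set. Of 14 endothelial markers tested, 9 were above 0 and 5 below (median 0.41), and DESeq2 called 2 higher and 0 lower. B lineage sums overlapped, with *Cd79a* from 23.1 to 203 CPM, as did stromal sums, with *Cxcl12* at 89.7 CPM in yHSC 1 and at most 13.3 CPM in the other libraries. Mast cell and basophil sums were 326 to 434 CPM in yHSCs and 569 to 730 CPM in Selp_high paHSCs. *Gata2*, which HSCs share, was the highest member, and no sum without it was taken.

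**Figure D5:**
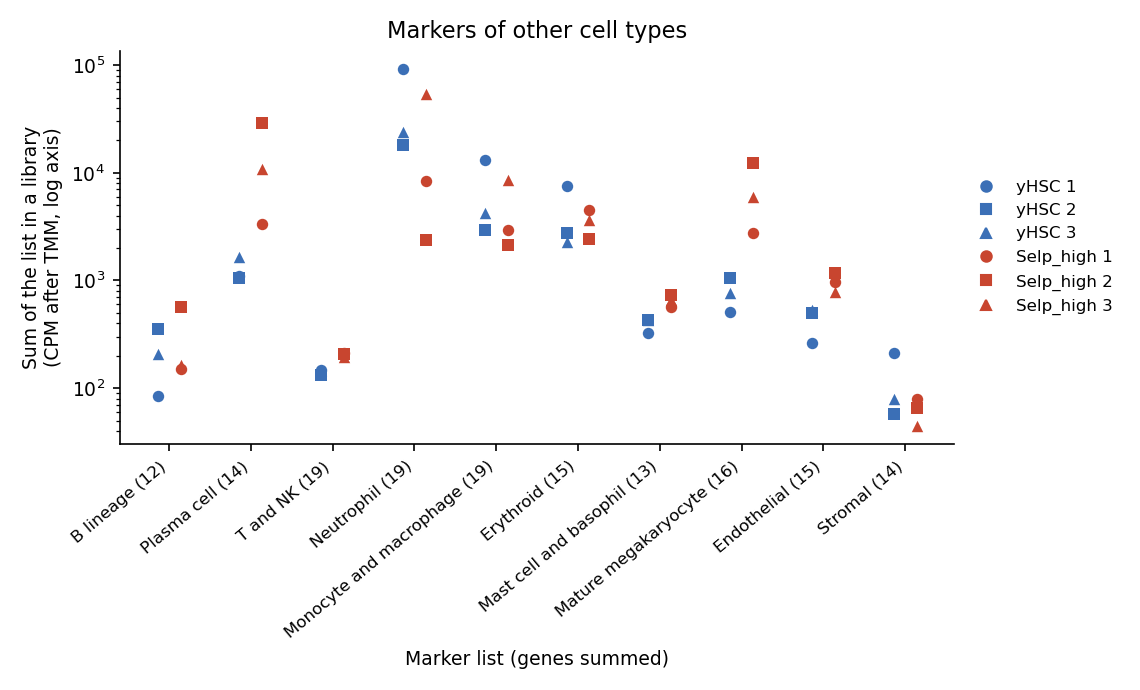
Sum of the levels of marker genes of 10 cell types (x axis, with the number of genes summed) in each library (y axis, CPM after TMM, log axis). Blue symbols are yHSC and red symbols Selp_high libraries. The mature megakaryocyte and plasma cell sums are higher in all Selp_high libraries, and the neutrophil sums range from 2378 to 92850 CPM with the groups mixed.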

How the data were processed

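RNA was extracted from sorted HSCs of mouse bone marrow, amplified as cDNA with a SMARTer Ultra Low kit and sequenced, 3 libraries each of yHSCs, Selp_high paHSCs and Selp_low paHSCs. The authors deposited raw read counts per gene, and per their processing notes these were made with CASAVA 1.8, HISAT2 2.2.1, featureCounts 2.0.6 and the build mm39. Which annotation release and strand setting they used is not given in the sources used here. Columns were matched to libraries by their names, and 0 columns of per-sample values were left unused.

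From the counts, genes with too few reads were removed with filterByExpr, libraries were scaled with TMM factors, and the 6 libraries were fitted with the quasi-likelihood test of edgeR 4.0.16 in R 4.3.3, with Benjamini-Hochberg adjustment over all genes tested. DESeq2 1.42.0 and limma 3.58.1 (voom with quality weights) were run on the same genes. Other scalings, filters, dispersion settings, a replicate block and each library left out were tried. The fits were tested on simulated counts with known changes, placed in genes of higher level. With dispersions estimated by edgeR from these libraries, DESeq2 made more false calls than edgeR or limma and also recovered more of the changed genes. The setting is that of edgeR's model, so it does not measure how many of the DESeq2 calls in these data are false. Depth per library and the limit of a count of 0 stand in the report. The smallest 2-sided exact permutation p that 3 against 3 libraries allow is 0.1, so single genes were tested only in the fits across all genes.

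Genes were named by a rule: every edgeR DEG, the genes of the sort, genes the study names, per list up to 4 members with the largest change and no overlap, and the 8 genes per direction with the lowest adjusted p of DESeq2 that edgeR did not call. Other members named for a call by DESeq2 were chosen after their values were seen. The comparison, the lists and this rule were chosen with earlier results of these data known. Promoter windows came from RefSeq (GRCm38.p6), and figures were drawn with matplotlib 3.10.9.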

Additional observations from a re-analysis of the deposited data

How the results depend on the processing

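The number of edgeR DEGs was 33 (21 higher, 12 lower). It was 472 with no filter on low counts (330 and 142), 92 with the newer quasi-likelihood setting (60 and 32), 275 with limma (174 and 101), 597 with DESeq2 (374 and 223), 19 in 1 fit of all 9 libraries (17 and 2) and 61 among protein-coding genes alone (41 and 20). Other scalings, a filter on the mean count and robust dispersions gave 32 to 36. The 33 genes kept their sign under every setting that tested them. With 1 library left out, edgeR called 0 to 36 genes, 0 to 30 higher and 0 to 12 lower. DESeq2 called 864 without yHSC 1 (501 and 363), 370 without yHSC 2 (270 and 100), 337 without yHSC 3 (241 and 96), 664 without Selp_high 1 (388 and 276), 586 without Selp_high 2 (288 and 298) and 728 without Selp_high 3 (411 and 317). Without the 2 libraries with the fewest genes detected, edgeR called 0 (0 and 0) and DESeq2 407 (279 and 128). That setting, the DESeq2 block and the protein-coding genes alone were chosen after seeing the data. The cause of these differences was not tested.

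With the replicate number as a replicate block, edgeR called 0 genes (0 higher, 0 lower), with 1316 at an unadjusted p under 0.05, and DESeq2 called 606 (361 and 245). The numbers did not pair the libraries: residuals of same-numbered libraries had correlations of -0.408, -0.402 and 0.0256, and no label ties a number to a shared mouse, batch or day. Among libraries with unlike numbers, yHSC 2 with Selp_high 1, which had the fewest genes detected, had 0.450, and yHSC 1 with Selp_high 2 had 0.368. Some variation was thus shared across the groups, and its source was not tested.

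The log2 fold change of *Cd48*, -0.16 in all 6 libraries and not called, ranged from -0.8652 to 0.1317 by edgeR with 1 library left out. It turned positive without yHSC 3 (0.089 by edgeR and 0.0511 by DESeq2), without Selp_high 1 (0.1317 and 0.1454), without Selp_high 3 (0.0287 and 0.0377) and without the 2 libraries with the fewest genes detected (0.1459 and 0.1153).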
